A study of Rattus norvegicus with 9 samples.

Results

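The genes described here encode the proteins of the cytosolic ribosome in rat knee cartilage. They were chosen by name, as the protein-coding entries of the deposited expression table called Rpl or Rps with a number and an optional suffix of a, l or x, together with Rpsa, Rplp0, Rplp1 and Rplp2, and without the Rps6k kinases. This gave 79 of 32043 entries under 74 names, 47 of the large (60S) subunit and 32 of the small (40S) subunit. The names Rpl21, Rpl22, Rpl35a, Rps13 and Rps6 each stood on 2 entries. Rpl36al, whose suffix has 2 letters, was counted in, and 78 entries would remain with at most 1 letter. A pseudogene named Rpl8 and a long noncoding RNA named Rpl30 matched the names but were not protein-coding, and these 2 were left out.

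The 9 libraries came from 3 groups of male Sprague-Dawley rats, with 3 libraries in each, and the rats were 8 weeks old when purchased. Model rats had knee osteoarthritis, brought about with the modified Hulth method, a surgery that destabilizes the joint. The study's methods also describe daily forced activity after the surgery as part of inducing the model. Control rats had the joint capsule opened and closed again. The SYD group was operated like the model group and was given Shengyu decoction, a multi-herb extract, by gavage at the highest dose of the study for 4 weeks. The knees were sampled 8 weeks after the operation. Dose, age and any pooling of animals are absent from the labels, so the age and the times are those of the study's methods, where sequencing is described for control and model rats alone. Nothing in the labels says whether the 3 libraries of a group came from separate animals, and p-values then measure the spread between these libraries. The labels name cartilage as the tissue but the extraction text mentions retina. All 10 chondrocyte markers on the list used here were read in every control library, with a summed level of 432 to 10605 FPKM (fragments scaled by gene length and the authors' effective library size, the deposited unit). Their sum was 153 to 876 FPKM in the model group and 98.9 to 1286 FPKM in the SYD group. In bulk tissue, fewer cells of a type and less RNA per cell cannot be told apart.

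A ribosome is built from ribosomal RNA and a set of proteins that are needed in near-equal numbers, and their messenger RNAs are among the most abundant in growing cells. Most of these messenger RNAs start with a C followed by a run of pyrimidines, the 5′ terminal oligopyrimidine (TOP) tract, through which the mTOR kinase and LARP1 control their translation together. Cartilage matrix is secreted by chondrocytes and depends on their capacity for protein synthesis. The mammalian genome also holds many processed copies of ribosomal protein genes, which arose by reverse transcription and lack introns.

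To show the start sites these genes share, 30 bases around the RefSeq start (10 before it and 20 from it on, build GRCr8) are given for the 6 highest-level members that begin with such a tract, followed by Rpl12 and Rpl3l, to which later results return. Capitals mark the C at the start and the pyrimidines that follow it without a break.
Rplp0, chr12:46718371-46718400, minus strand: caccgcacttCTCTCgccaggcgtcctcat
Rps15, chr7:10068096-10068125, minus strand: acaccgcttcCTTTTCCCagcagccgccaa
Rps3a, chr2:173827023-173827052, minus strand: gtacttccgcCCTTTTggctctcagagcgg
Rpl19, chr10:83519054-83519083, plus strand: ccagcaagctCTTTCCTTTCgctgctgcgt
Rpl10, chrX:157205840-157205869, plus strand: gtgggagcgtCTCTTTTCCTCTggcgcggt
Rplp1, chr8:71290853-71290882, minus strand: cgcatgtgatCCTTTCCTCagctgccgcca
Rpl12, chr3:36661930-36661959, plus strand: aacatccgtcttttcggctttcggttcgga
Rpl3l, chr10:14258436-14258465, plus strand: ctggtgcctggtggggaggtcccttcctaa

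RefSeq held a promoter for 58 of the 74 names, in 59 windows of 300 bases (250 before the start and 50 after). A C at the start followed by at least 4 pyrimidines on the gene's strand was found in 21 of these windows (35.6%), against 2.63% of all 33469 windows of the same length. The 7 letters CCGGAAG, searched on both strands, were in 28.8% of the members' windows and 8.75% of all. The 8 letters AAGATGGC were in 8.47% against 3.17%. The reverse strand of the first of these can overlap a pyrimidine tract. The pyrimidine run of Rpl12 began before the listed start and was not counted, and Rpl3l had no run there.

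Members differed widely in level. Of the 79 entries, 75 had a mean over the 9 libraries of at least 0.5 FPKM and were tested, 2 (Rpl30 and the second Rpl21 entry) were at 0 in every library, and 56 had a mean above 100 FPKM. Between 25 and 37 of the 100 genes with the highest FPKM in a library were members. The median of the 79 means was 220 FPKM.

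Among proteins of the large subunit, Rplp0, the stalk protein that binds elongation factors, had the highest level, at 666, 725 and 670 FPKM in the control group, 1074, 677 and 1781 in the model group and 683, 597 and 1025 in the SYD group. Its partners in the stalk were lower. Rplp1 measured 240, 278 and 260 FPKM in the control group, 445, 378 and 889 in the model group and 310, 322 and 546 in the SYD group. Rplp2 measured 305, 411 and 307, then 584, 370 and 669, then 370, 351 and 648 FPKM. All 3 stalk genes were highest in model library 3 and, within the SYD group, in library 3. Rpl19, Rpl10 and Rpl32 were next after Rplp0, with means over all libraries of 548, 521 and 482 FPKM. Rpl5 and Rpl11, which carry 5S ribosomal RNA and can bind Mdm2 outside the ribosome, measured 131 to 153 and 146 to 180 FPKM in the control group. In the model group they measured 152 to 382 and 207 to 465 FPKM.

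In the small subunit, Rps15 was highest, at 502, 608 and 608 FPKM in the control group, 736, 635 and 1104 in the model group and 678, 601 and 850 in the SYD group. Rps3a measured 387, 467 and 420 FPKM in the control group, 919, 628 and 1571 in the model group and 529, 513 and 770 in the SYD group, and neither operated group overlapped the controls. Rps16 and Rps4x followed, with means of 543 and 503 FPKM. Rpsa, also known as the laminin receptor, had 290 to 340.9 FPKM in the control group, 363 to 921 in the model group and 340.5 to 560 in the SYD group, and its SYD and control ranges overlapped at 1 library.

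The lowest of the tested entries were Rps20, a second Rpl35a entry and Rpl10l, with means of 3.24, 2.12 and 0.736 FPKM. For Rps20 the low level belonged to the entry and not to the protein, since its entry held 0.191% to 1.25% of the FPKM of all entries described as that protein.

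**Figure D1:**
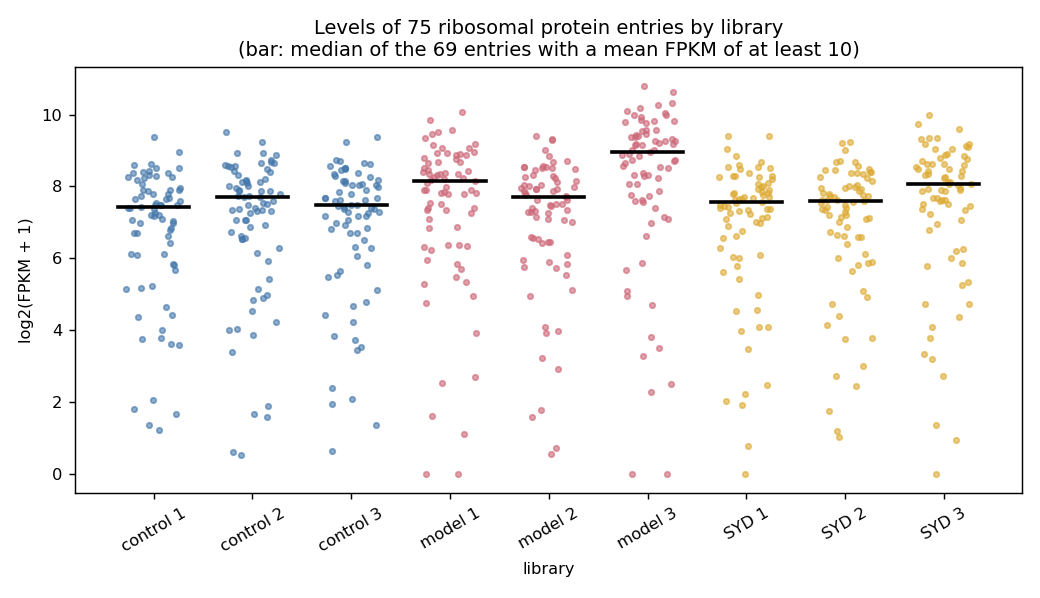
Each point is one of the 75 tested entries in one library, on the scale log2(FPKM + 1), coloured by group, and the bar is the median of the 69 entries with a mean of at least 10 FPKM. The medians correspond to 171 to 207 FPKM in the control group, and model library 3 stands highest at 493 FPKM.

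The table does not always place a member's name on the gene with introns. Of the 79 entries, 11 had a length equal to their whole span, that is, no intron, and 8 of these were tested, with Rps10, Rpl39, Rpl36al, a second Rpl22, Rpl9, Rps20 and Rpl10l among them. Of the 63 entries whose name had a RefSeq promoter, 8 stood on another chromosome than the RefSeq gene, Rpl39 (chromosome 18 in the table, X in RefSeq) and Rpl9 (1 and 14) among them. A further 559 entries carried a description as a cytosolic ribosomal protein without a member's name, and took 15.9% to 18.7% of the reads that fell on members and these copies together. How reads that match several copies were counted is not given in the sources used here, so values of single entries in such families are uncertain. Sums of FPKM over a family still depend in part on how reads were divided, since copies differ in length.

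Reads could be recovered from the deposited FPKM, and they showed how much of each library the members took. Of 14914121 to 19510537 reads per library, members took 3.02%, 3.85% and 3.57% in the control group. The model libraries gave them 0.490%, 2.64% and 1.54%, and the SYD libraries 2.79%, 2.43% and 1.52%. All 3 model shares and all 3 SYD shares lay below the lowest control share. The effective library size behind the deposited FPKM was 2.01 to 2.18 times the recovered reads in the control group. It was 0.193, 1.44 and 0.343 times in the model group and 1.65, 1.46 and 0.609 times in the SYD group. An equal share of reads therefore gives a higher FPKM in every model and SYD library than in any control library. The 37 mitochondrial genes took 4.05% to 4.86% of the reads in the control group, 39.5% to 90.7% in the model group and 23.7% to 72.7% in the SYD group. When only reads outside these genes were counted, the order turned for the model group but not the SYD group, whose range then overlapped the controls, with members at 3.15%, 4.04% and 3.72% in the control group, 5.29%, 4.36% and 8.25% in the model group and 3.65%, 3.72% and 5.59% in the SYD group. The widest exact 95% binomial interval of these shares was 0.0665 percentage points, far less than the spread between libraries, and it covers counting error only.

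**Figure D2:**
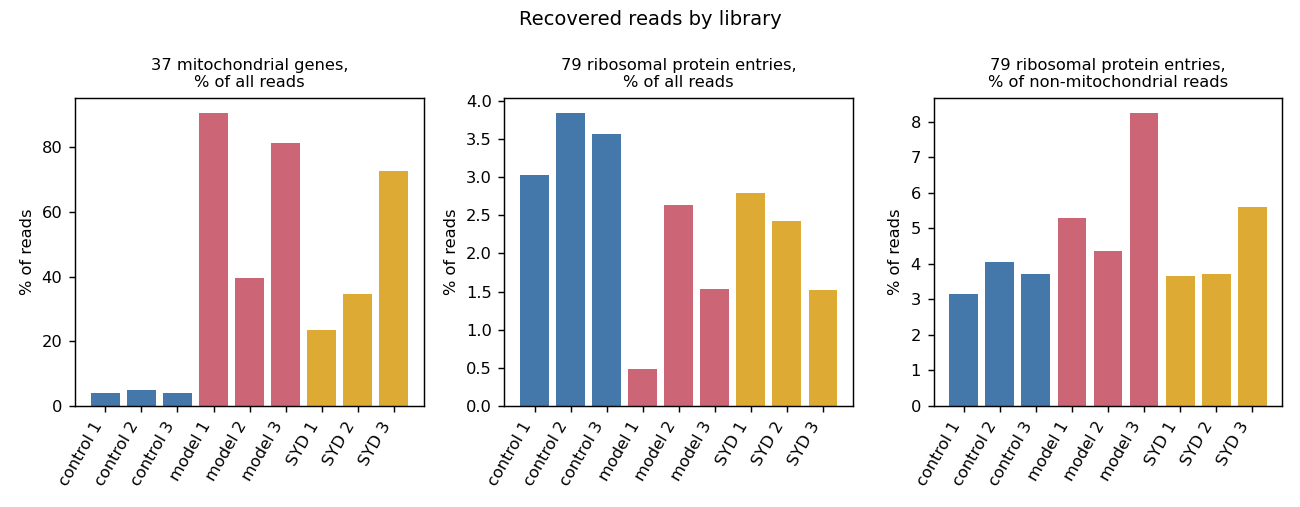
Bars give the share of recovered reads in each library, coloured by group, for the mitochondrial genes (left), the members among all reads (middle) and the members among reads outside the mitochondrial genes (right). The members' share is lower in every model and SYD library than in the controls in the middle panel and higher in every model library than in the controls in the right panel.

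The comparison of the model with the control group asks what changed in cartilage after destabilizing surgery and the forced activity that followed it. On the deposited scale, ribosomal protein genes stood higher in the model group, with a median log2 fold change of 0.72 over the 75 tested entries, and 70 of them had a positive value. The median of all 13898 genes tested was −0.23. A gene was called by the study's criteria for differentially expressed genes, an unadjusted p under 0.05 with more than a 1 log2 unit change either way, from limma on log2(FPKM + 1). By this rule 12 entries (16.0%) rose, against 3.55% of all genes, and 1 entry (1.33%) fell, against 11.2%. After Benjamini-Hochberg adjustment in limma, 0 of 75 passed 0.05, while 2.59% of all genes passed. At an unadjusted p under 0.05 in limma stood 15 entries, or 20% of them, near the 19.2% of all genes. All model libraries were above all control libraries for 37 entries (49.3%), against 8.65% of all genes, and below them for 1 entry (1.33%), against 20% of all genes.

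Of the 12 that rose, 7 belonged to the large subunit (Rplp1, Rpl9, Rpl22 on chromosome 4, Rpl23a, Rpl36al, Rpl39 and Rpl39l) and 5 to the small (Rps3a, Rps15a, Rps24 and Rps25 among them). The medians of the subunits were 0.77 and 0.60. Rpl36al, a copy-derived paralog of Rpl36a, had the largest value. It measured 15.2, 17.9 and 17.9 FPKM in the control group and 29.98, 56.1 and 214 in the model group, without overlap, with a log2 fold change of 2.02 ± 0.69 (SE, n = 3 per group, limma adjusted p = 0.19). Rpl39l, a paralog of Rpl39 known for its use in testis, measured 3.14, 0.429 and 1.56 FPKM against 4.76, 6.55 and 8.65, a log2 fold change of 1.60 ± 0.50 (limma adjusted p = 0.16). The Rpl35a entry on chromosome 5 measured 12.3, 14.98 and 9.87 FPKM against 74.8, 14.6 and 32.8, and its groups overlapped. Its log2 fold change of 1.37 ± 0.58 did not pass the criteria (limma unadjusted p of 0.053, adjusted p = 0.27).

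Among entries with introns, Rps15a, a small subunit protein, measured 132, 169 and 154 FPKM in the control group and 335, 233 and 681 in the model group (log2 fold change 1.31 ± 0.45). Rps24, in which mutations cause Diamond-Blackfan anemia, measured 68.9, 93.9 and 78.1 FPKM against 160, 140 and 322 (1.27 ± 0.38). Both genes were higher in every model library. Of the 12 entries that rose, 4 had no intron in the table (Rpl39, Rpl36al, Rpl22 on chromosome 4 and Rpl9), among 8 such entries tested. The entries with introns had a median of 0.70 and 8 of 67 rose. When the FPKM of all entries described as the same protein were summed, an alternative chosen after seeing the data, 10 of 72 protein families rose and 1 fell.

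The entry that fell was Rpl3l, the paralog of Rpl3 found in heart and skeletal muscle, at chromosome 10 from 13753886 to 13764457. It measured 10.96, 13.5 and 12.1 FPKM in the control group and 0, 0.639 and 10.2 in the model group. In the SYD libraries it measured 0, 7.035 and 1.57 FPKM. The 0 in model library 1 rested on few reads, since 3 reads would have been 0.480 FPKM there, but in SYD library 1 they would have been 0.0658 FPKM. The log2 fold change was −2.32 ± 0.90 between model and control (limma adjusted p = 0.23) and −2.26 ± 0.73 between SYD and control (limma adjusted p = 0.086). The summed level of 6 skeletal muscle markers was 259, 50.9 and 8.08 FPKM in the control group, 89.0, 17.9 and 472 in the model group and 19.2, 786 and 241 in the SYD group. Within the SYD group this sum had the same order as Rpl3l, and within the model group both were highest in library 3, while control library 3, with the lowest sum of all, had 12.1 FPKM of Rpl3l. The part of muscle in the level of Rpl3l was not tested. The other 2 lowest values in this comparison did not pass the criteria. The second Rpl35a entry, on chromosome 11, measured 1.54, 2.16 and 3.24 FPKM in the control group and 0, 2.43 and 0 in the model group (log2 fold change −1.10 ± 0.57). Rps27l, a p53 target and paralog of Rps27, measured 19.4, 22.0 and 20.5 FPKM against 38.3, 29.6 and 3.86 (−0.27 ± 0.79), with model library 3 far below the others.

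The libraries of the model group did not weigh alike. The number of entries that rose was 3 without control library 1, 5 without control library 2, 4 without control library 3, 11 without model library 1, 35 without model library 2 and 3 without model library 3. Of all genes, 1.92% to 7.14% rose in these fits. The call of Rpl36al was lost without any of the controls or model library 2, that of Rpl39l without control library 2, control library 3 or model library 3, and that of Rpl3l in every such fit but the one without model library 3. Without model library 2, 5.66% of all genes rose and 18.4% fell, and 16 of the entries that rose also had an adjusted p under 0.05 in limma, as did 3.5% of all genes higher in the model group. The median of the members was 1.02 in that fit and 0.38 without model library 3. Compared with the mean of the controls, the median shift of the 69 entries with a mean of at least 10 FPKM was 0.59 in model library 1, 0.15 in library 2 and 1.43 in library 3 on the log2 scale. Mitochondrial genes took 90.7%, 39.5% and 81.3% of the reads in the same libraries, so the library with the smallest share had the smallest shift. The part of the mitochondrial reads in these shifts was not tested.

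The direction itself depended on the scale. When FPKM were rescaled to a fixed total per library (as in TPM, which fixes the sum of length-scaled values), in which mitochondrial reads count, the median of the members was −2.45 and that of all genes −2.60. In that fit 65 members fell and 0 rose, and 74.9% of all genes fell. When FPKM were rescaled to reads outside the mitochondrial genes, the median was 0.64 and that of all genes −0.27. Under quantile normalization the median was 0.21 against 0.04. Relative to the median of all genes, the members stood higher by 0.95 on the deposited scale, and higher under each of these scalings as well. The size of this gap depended on the 1 added before the log, which weighs on genes of low level. With 0.1 added instead on the deposited scale, the medians were 0.72 for the members and −0.54 for all genes. The small gap under TPM, from log2(TPM + 1), is therefore not a result about the members. Genes of a like abundance came closer to the members. Of the 175 genes with a mean of at least 100 FPKM that were neither members nor copies, 22.3% rose, with a median of 0.47, while 6 of 56 members of that level (10.7%) rose, with a median of 0.71.

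**Figure D3:**
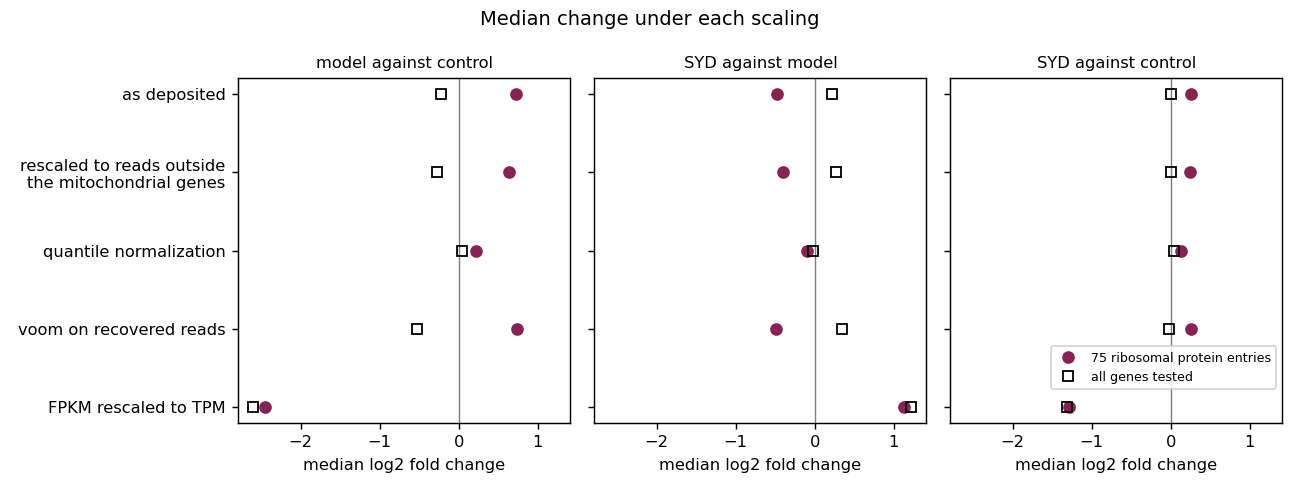
Filled circles give the median log2 fold change of the 75 tested entries and open squares that of all genes tested, for 5 scalings of the data and each comparison of groups. The members' median for model against control is 0.72 as deposited and −2.45 after rescaling to TPM, close to the median of all genes in the latter case. The gap between both medians under TPM depends on the 1 added before the log.

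The comparison of SYD with the model group asks what treatment changed after the same surgery, and it shares the model libraries with the comparison above. The members stood lower in the SYD group on the deposited scale, with a median log2 fold change of −0.48 (all genes 0.22) and 70 of 75 negative values. The 175 other genes with a mean of at least 100 FPKM were lower too, with a median of −0.33, beside −0.49 for the 56 members of that level. Under quantile normalization the members' median was −0.10 and that of all genes −0.02. Only 1 entry (1.33%) passed the criteria, and it fell, against 0.532% of all genes that fell. No entry rose, against 3.62% of all genes. At an adjusted p under 0.05 in limma, 0 of 75 passed, as did 0% of all genes, and 1 entry had an unadjusted p under 0.05 (5.26% of all genes). The groups did not overlap for 6 entries, all lower in SYD (8%, against 3.17% of all genes), namely Rpl14, Rpl22 on chromosome 4, Rpl29, Rpl39, Rpl39l and Rps25. For 0 entries were all SYD libraries higher, against 7.89% of all genes.

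The entry that fell was the Rpl22 entry without an intron on chromosome 4. It measured 81.9, 45.03 and 50.04 FPKM in the model group and 22.0, 29.2 and 25.2 in the SYD group, beside 23.8, 29.0 and 26.6 in the controls (log2 fold change −1.14 ± 0.31, limma adjusted p = 0.72). The SYD and control ranges overlapped. The Rpl22 gene with introns, on chromosome 5, measured 50.7, 33.9 and 57.5 FPKM in the model group and 22.5, 25.5 and 36.99 in the SYD group, which overlapped. Rpl35a on chromosome 5 and Rpl36al had values of −1.23 ± 0.60 and −1.04 ± 0.69 and did not pass. The highest values were 1.36 ± 0.68 for Rpl35a on chromosome 11, 0.64 ± 0.62 for Rps20 and 0.43 ± 0.39 for Rpl12, none of which passed either. Without model library 2 the number of calls was 12, with 11 of them lower in SYD (4.12% of all genes were lower and 13.8% higher in that fit) and a median of −0.75, and without model library 3 it was 2 and the median moved to −0.15. The call of Rpl22 was lost without model library 1. After rescaling to TPM the median was 1.13, against 1.22 for all genes, and 0 members passed the criteria.

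The comparison of SYD with the control group shares its libraries with both comparisons above. The median log2 fold change was 0.25 (all genes 0.00), with 60 positive values of 75. The 175 other genes with a mean of at least 100 FPKM had a median of 0.30 and 29.7% of them rose, while the 56 members of that level had a median of 0.25 and 0 rose. After rescaling to TPM the members' median was −1.28, against −1.31 for all genes, and 45 entries fell, as did 42.5% of all genes. By the study's criteria 0 entries rose, against 7.25% of all genes, and Rpl3l alone fell (1.33%), against 9.22%. At an adjusted p under 0.05 in limma, 4 entries (5.33%) passed and all 4 were higher in SYD, against 17.3% of all genes in either direction. All SYD libraries were above all controls for 21 entries (28%), against 20.3% of all genes, and below them for 1 entry (1.33%), against 22.2%.

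The 4 entries were Rpl21 on chromosome 12, Rpl36al, Rpl39 and Rpl12, all of the large subunit. Rpl36al measured 30.6, 32.9 and 39.8 FPKM in the SYD group, each above the highest control of 17.9 (log2 fold change 0.98 ± 0.15, limma adjusted p = 0.015). The Rpl21 entry measured 34.5, 34.3 and 33.4 FPKM in the controls and 54.5, 55.4 and 57.8 in the SYD group (0.70 ± 0.10, limma adjusted p = 0.014). The values of the Rpl39 entry were 35.3, 30.4 and 43.7 against 62.8, 58.4 and 63.9 FPKM (0.76 ± 0.16, limma adjusted p = 0.032). Rpl12, part of the base of the ribosomal stalk, measured 103, 133 and 112 FPKM in the controls, 153, 93.9 and 234 in the model group and 189, 177 and 246 in the SYD group (0.80 ± 0.20, limma adjusted p = 0.045). The groups were clear of each other for all 4. Rpl17 and Rps27l had the lowest values after Rpl3l, −0.32 ± 0.24 and −0.35 ± 0.18. The number of entries higher in SYD with an adjusted p under 0.05 was 0 without control library 1 or control library 3, 1 without control library 2, 2 without SYD library 1 or SYD library 2 (1 entry was then lower without SYD library 2) and 5 without SYD library 3, while 0.396% to 12.2% of all genes were higher by this threshold in these fits. It was also 0 with all 9 libraries in one fit (0.396% of all genes) and with sums over families of copies. Summed over its family, Rpl12 had a log2 fold change of 0.14 ± 0.25, Rpl21 0.45 ± 0.26, the family of Rpl36al and Rpl36a 0.55 ± 0.25 and Rpl39 0.56 ± 0.15 (limma adjusted p-values of 0.73, 0.28, 0.18 and 0.053). The median of the members was 0.06 without SYD library 3. The call of Rpl3l was lost without control library 2, control library 3 or SYD library 3.

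Because the scale moved all members together, each was also measured against the others. The median of the 69 entries with a mean of at least 10 FPKM was subtracted in each library, and the fit was repeated. Across these 69 entries the Pearson correlation of log2(FPKM + 1) was 0.990 to 0.995 between control libraries, 0.983 to 0.991 between SYD libraries and 0.890 to 0.944 between model libraries, and it was 0.908 to 0.970 between control and model libraries. These are correlations across genes, which are not independent replicates and share libraries, and the wide range of levels keeps them high. Before the subtraction, single members moved by −2.16 to 3.59 on the log2 scale from the controls in model library 3, where the median shift was 1.43. On this relative scale, 2 entries were called between model and control (26% of all genes were), 0 between SYD and model (7.74% of all genes) and 1 between SYD and control (17.6% of all genes). Between SYD and model, 2 were called without model library 1 (3.32% of all genes), 1 without model library 2 (34.5%) and 1 without model library 3 (2.34%). Rpl36al was the relative rise in the model group, at 1.29 ± 0.52 (limma adjusted p = 0.17), and Rpl3l the fall, at −3.05 ± 0.71 (limma adjusted p = 0.066). The relative call of Rpl36al was lost when any control library, model library 2 or model library 3 was left out. Between SYD and control, Rpl3l was lower by this measure too (−2.47 ± 0.69, limma adjusted p = 0.060), and Rpl36al was higher with an adjusted p of 0.036 in limma (0.77 ± 0.18) but did not reach an absolute log2 fold change of 1. No entry was higher at an adjusted p under 0.05 when any control library, SYD library 1 or SYD library 2 was left out. The same held without a filter on low values, with voom, with all 9 libraries in one fit and with a replicate block. Of all genes, 0.0288% to 3.81% were higher in these fits. Next to Rpl36al and Rpl3l stood Rpl39l (0.87 ± 0.65) and Rpl35a on chromosome 11 (−1.84 ± 0.82) between model and control, and Rpl12 (0.59 ± 0.17) and Rps27l (−0.56 ± 0.30) between SYD and control, none of which passed. Between SYD and model the relative extremes were 1.88 ± 0.89 for Rpl35a on chromosome 11, 1.16 ± 0.72 for Rps20, −0.70 ± 0.59 for Rpl35a on chromosome 5 and −0.62 ± 0.51 for Rpl22 on chromosome 4.

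**Figure D4:**
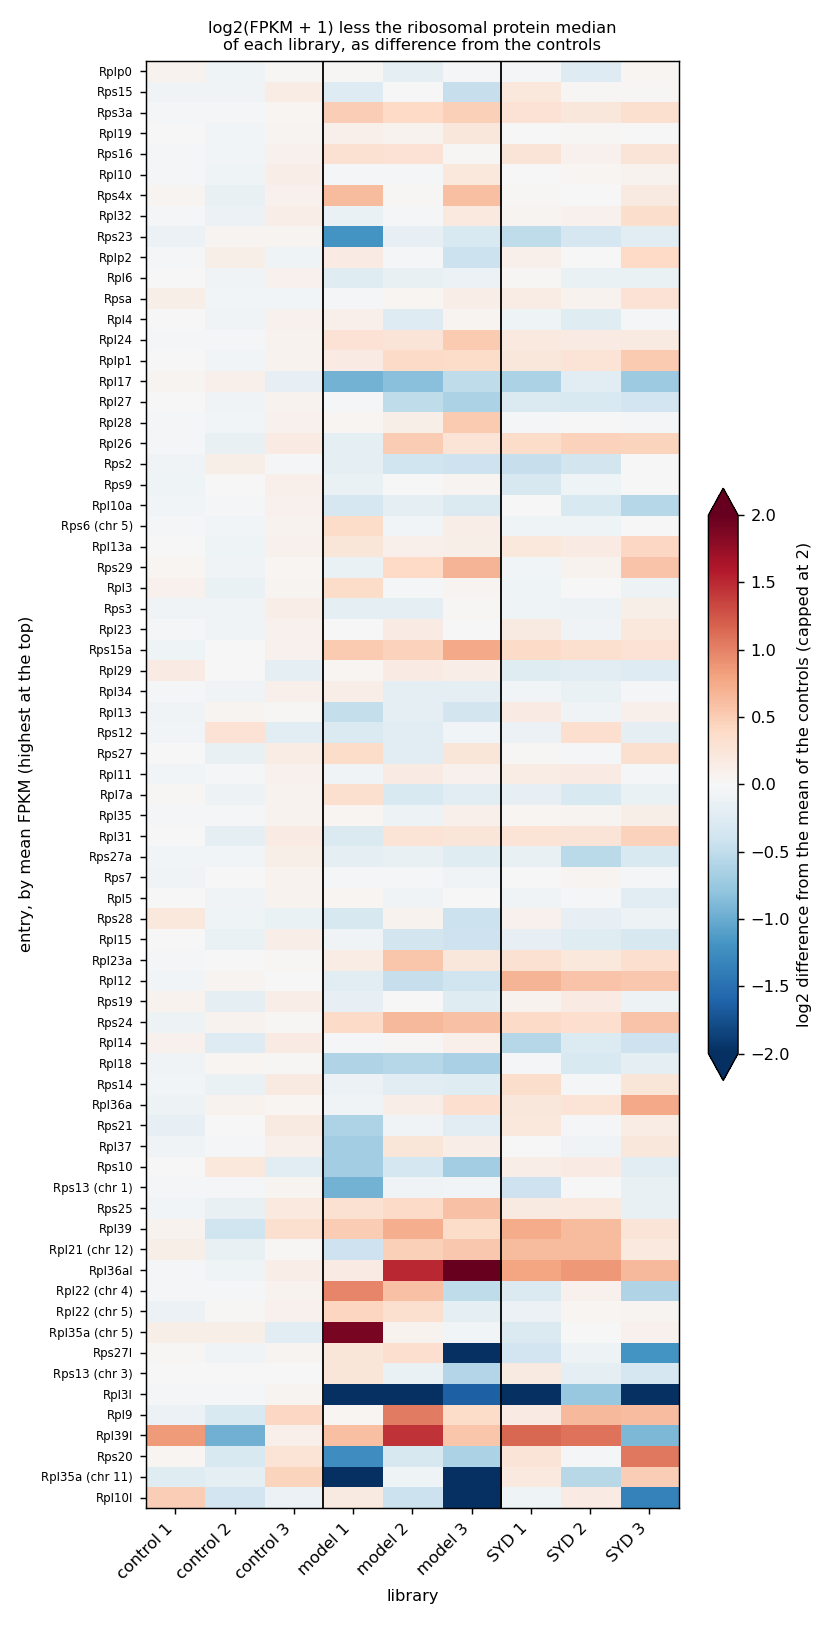
Rows are 70 of the 75 tested entries in order of mean FPKM and columns the 9 libraries. Colour gives log2(FPKM + 1) after subtraction of each library's ribosomal protein median, as the difference from the mean of the 3 controls, capped at 2. Most rows are pale, whereas Rpl3l is blue in every model and SYD library and Rpl36al is red in each, palest in model library 1.

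A ratio of a paralog to its parent gene does not depend on the scale, and it was compared in 12 exact two-sided permutation tests, for which the smallest possible p is 0.1 with 3 libraries against 3. The log2 ratio of Rpl36al to Rpl36a was −2.15, −2.35 and −2.10 in the controls, −1.93, −0.77 and −0.31 in the model group and −1.62, −1.58 and −2.28 in the SYD group. The mean was higher by 1.20 in the model than in the control group, with no overlap (exact permutation p = 0.1, adjusted p = 0.72 over the 12 tests), and SYD library 3 fell among the controls. Rps27l to Rps27 was −2.96, −2.90 and −3.09 in the controls, −3.08, −2.40 and −7.04 in the model group and −3.41, −3.06 and −4.55 in the SYD group, with library 3 lowest in both operated groups. For Rpl39l to Rpl39 and for Rpl22l1 to the sum of the 2 Rpl22 entries the groups overlapped, with exact permutation p-values of 0.3 to 1. Rpl3l and Rpl10l had fewer than 10 reads in at least 1 library and were left untested. Rpl3l made up 5.15%, 6.07% and 5.58% of the summed FPKM of Rpl3l and Rpl3 in the controls, at most 1.76% in the model group and at most 3.18% in the SYD group.

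**Figure D5:**
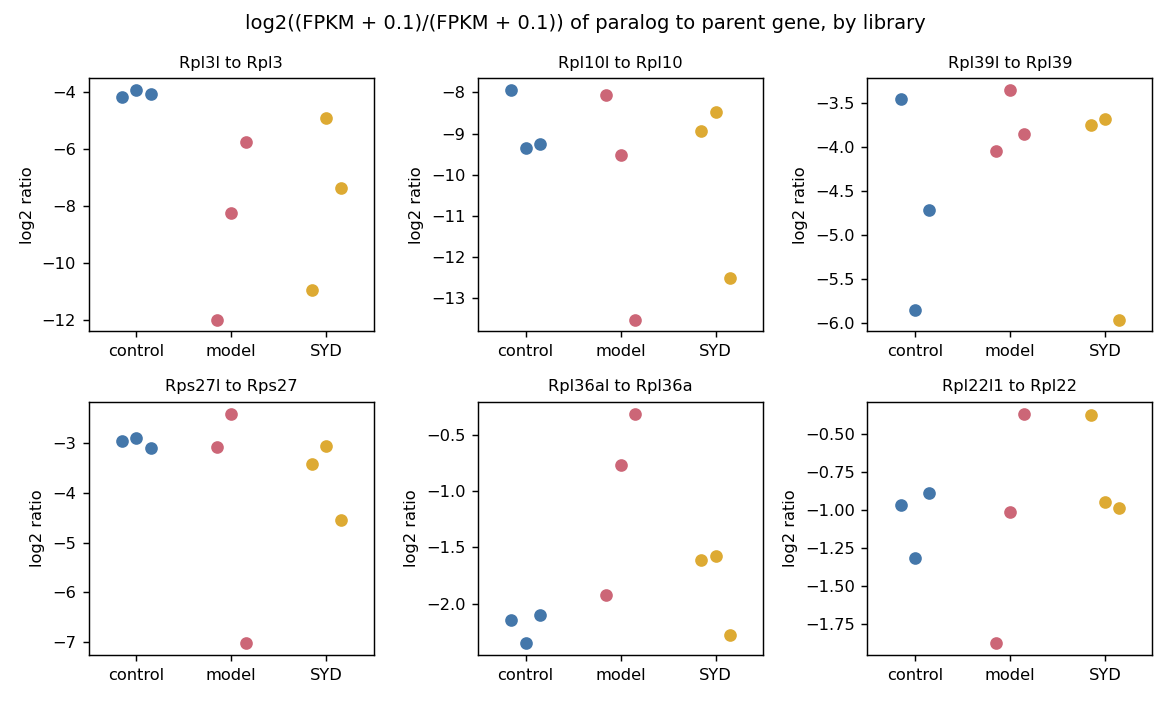
Each point is a library and gives log2((FPKM + 0.1)/(FPKM + 0.1)) of a paralog to its parent gene, by group, with a separate vertical axis for each of the 6 pairs. Every model and SYD library lies below the controls for Rpl3l to Rpl3, and every model library lies above the controls for Rpl36al to Rpl36a.

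Members were also divided by start sequence and length. The 19 tested entries with a TOP tract at the RefSeq start and on the RefSeq chromosome had a median log2 fold change of 0.74 between model and control, and the 35 without it 0.70. Those without it include Rps23 and Rpl12, whose pyrimidine runs begin before the listed start. The split thus follows the listed base and cannot tell TOP messenger RNAs from others. The medians were −0.52 and −0.43 between SYD and model and 0.24 and 0.22 between SYD and control. Spearman's rho between the log2 fold change and the length of the 75 entries was −0.02, −0.04 and −0.11 in the 3 comparisons, given as a description across genes.

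Genes other than the members that followed them most closely were sought by the Pearson correlation of log2(FPKM + 1) with the members' median over the 9 libraries, which share a scale. The 4 highest were Tpt1 (0.991), which encodes the translationally controlled tumor protein, LOC687780 (0.989), an entry described as the ubiquitin-like protein FUBI (made as a fusion with a ribosomal protein of the small subunit), Eif3m (0.989), a subunit of initiation factor 3, and Esd (0.980), an esterase. Tpt1 measured 451, 496 and 490 FPKM in the controls, 813, 524 and 1650 in the model group and 462, 517 and 768 in the SYD group. Among the members themselves, whose own values make up that median, 45 of 75 had a coefficient above 0.9. Rps27l, Rpl35a on chromosome 11, Rpl10l and Rpl3l were the 4 members with a negative coefficient, from −0.67 to −0.03.

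Other genes of protein synthesis were taken from lists, whose counts are to be read against all genes, of which 3.55% rose and 11.2% fell between model and control, 3.62% and 0.532% between SYD and model and 7.25% and 9.22% between SYD and control. Of 15 tested genes with known TOP messenger RNAs outside the family, 2 rose between model and control and 0 fell, with a median log2 fold change of 0.72, equal to that of the members. Their median was −0.50 between SYD and model, with 0 called, and 0.11 between SYD and control, where 1 rose. Their most abundant genes were Vim, Tpt1 and Eef2. Vim, the intermediate filament vimentin, measured 331, 202 and 285 FPKM in the controls, 449, 1314 and 1706 in the model group and 1149, 1232 and 678 in the SYD group. It rose in both operated groups (log2 fold changes of 1.90 ± 0.60 and 1.88 ± 0.35 against control). Tpt1 (0.89 ± 0.53) and Eef2, the translocation factor (0.23 ± 0.44), did not pass.

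Of 34 translation factors, several of which are also on the TOP list, 2 fell and 0 rose between model and control (median 0.10), and 0 were called in the other 2 comparisons (medians −0.30 and −0.23). Pabpc1, the poly(A) binding protein, measured 218, 317 and 222 FPKM in the controls and 133, 107 and 194 in the SYD group, and Eef1g differed by 0.02 ± 0.19 on the log2 scale between these groups. Of 55 ribosome biogenesis genes, 4 fell and 0 rose between model and control (median −0.36), 1 rose and 1 fell between SYD and model (0.09), and 1 rose and 1 fell between SYD and control (−0.30). The 3 most abundant were Ncl, nucleolin, at 0.72 ± 0.42 between model and control, Dkc1, the pseudouridine synthase, at −0.49 ± 0.36, and Nop10, its partner, at −0.57 ± 0.81, none of which passed.

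Of 35 subunits and regulators of RNA polymerases I and III, which make ribosomal RNA, 4 fell and 0 rose between model and control (median −0.47). Between SYD and model 2 rose and 0 fell (0.32), and between SYD and control 1 rose and 1 fell (−0.21). Maf1, a repressor of polymerase III, measured 32.9, 48.6 and 35.5 FPKM in the controls and 23.1, 20.4 and 20.7 in the model group (−0.82 ± 0.23), short of a log2 fold change of 1. Polr1d and Ubtf had values of 0.36 ± 0.24 and −0.21 ± 0.24. Of 71 mitochondrial ribosomal protein genes, which serve the separate ribosome of mitochondria, 1 rose and 4 fell between model and control (median −0.15), 3 rose and 1 fell between SYD and model (0.04), and 0 were called between SYD and control (−0.19). Their most abundant, Mrpl17, Mrpl54 and Mrpl27, had values of 0.30 ± 0.26, 0.39 ± 0.27 and −0.11 ± 0.66 between model and control. At an adjusted p under 0.05 in limma, 3 translation factors, 3 biogenesis genes and 2 mitochondrial ribosomal protein genes were lower in SYD than in control, 1 polymerase gene and 1 TOP gene were higher, and 0 of these lists' genes passed in the other 2 comparisons. Of all genes, 9.57% were lower and 7.75% higher in SYD by this threshold. The median of all genes between model and control was −0.23, so the medians of the translation factors and of the mitochondrial list lay above it and those of the biogenesis and polymerase lists below it.

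Markers of several cell types moved with these groups. Proliferating cell markers fell in both operated groups (5 of 5 tested in each), with a sum of 121 to 197 FPKM in the controls, 18.8 to 57.3 in the model group and 8.59 to 34.4 in the SYD group. B cell markers had sums of 267 to 353, 16.9 to 46.6 and 15.5 to 46.2 FPKM, and 6 of 7 fell between model and control. Of 7 neutrophil markers tested 3 fell between model and control, of 10 chondrocyte markers 6 and of 5 erythroid markers 1, while of 6 macrophage, 6 osteoblast and 6 skeletal muscle markers 0 did. The summed erythroid markers were 1213, 2982 and 1511 FPKM in the controls, 6018, 48.4 and 7285 in the model group and 216, 256 and 2105 in the SYD group. Within each operated group they were highest in library 3, as was the shift of the members, and in the model group lowest in library 2, where that shift was smallest. The sum does not stand for each erythroid marker. Between model and control 4 of the 5 had a negative log2 fold change and 1 a positive one of 0.03, with a median of −2.22. Neutrophil sums were 2967 to 5714, 69.1 to 7943 and 537 to 3424 FPKM, and 5 of 7 neutrophil and 3 of 5 erythroid markers fell between SYD and control. Osteoblast sums were 2998 to 5957 FPKM in the controls, 1243 to 7467 in the model group and 7747 to 10475 in the SYD group, above every other library, and 1 of 6 markers rose between SYD and control. The part of these cell types in the members' levels was not tested.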

How the data were processed

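Rat RNA sequencing libraries of 3 groups (control, model and SYD, 3 each, grouped by the sample titles) were used. The authors deposited FPKM per gene and library with gene lengths and annotation. The submitters' processing notes name HISAT2 2.0.5 and the build hg38, a human build, while the identifiers are those of rat genes. The rat build, the counter, strand use and the treatment of reads that match several places are not given in the sources used here. FPKM times gene length was a whole multiple of 1 step per library for 100% of values (tolerance 0.1), which gave reads and the authors' effective library size. The authors' comparisons were not used.

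The main test was limma 3.58.1 (R 4.3.3) with lmFit and eBayes with a trend, two-sided, on log2(FPKM + 1) of the 6 libraries compared, for the 13898 genes whose mean FPKM reached 0.5. Adjustment was by Benjamini-Hochberg across all of them. Folds on this scale understate changes of low genes. A relative fit subtracted the members' median. Paralog ratios used exact permutation tests, in SciPy 1.17.1. The fit was tested on simulated data. Promoters are RefSeq (GRCr8). Members with the highest levels, the 3 highest and 3 lowest log2 fold changes per comparison (2 and 2 in the relative fit), those with an adjusted p under 0.05 and the 3 most abundant genes of each list were named, and other called entries were named after their values were seen. Some members and 1 other gene that these rules would name are not reported here. The members, lists and tests were chosen with earlier results of these data known. Alternatives were other pseudocounts, filters, scalings, voom, all 9 libraries, a replicate block, each library left out and, chosen after seeing the data, sums over families of copies.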

Additional observations from a re-analysis of the deposited data

How the results depend on the processing

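On the deposited scale, 13 members were called between model and control, 1 between SYD and model and 1 between SYD and control, beside 14.7%, 4.15% and 16.5% of all genes. With FPKM rescaled to TPM the counts were 65, 0 and 45, where 75.2%, 3.81% and 43.4% of all genes were called, and the members' median log2 fold change turned to −2.45, 1.13 and −1.28. The cause was not tested. Quantile normalization gave 6 calls (14.7% of all genes) and a median of 0.21 between model and control. All 9 libraries in one fit gave 3 calls between SYD and model (8.78% of all genes), and family sums gave 0. Model against control had 3 to 36 calls when each library was left out in turn, SYD against model 1 to 12 and SYD against control 0 to 2, beside 9.42% to 24.1%, 2.27% to 18% and 12.9% to 18.7% of all genes. Calls relative to the members' median numbered 1 to 2 for model against control and 0 to 2 for SYD against model when a library was left out, beside 12.4% to 54% and 2.34% to 34.5% of all genes. Having no filter on low values gave 4 relative calls between model and control (24.2% of all genes) and 1 between SYD and model (8.65%), voom gave 1 (8.74%) and all 9 libraries gave 2 (16.5%) between SYD and model. Deviations of same-numbered libraries from their group means correlated at −0.27 to 0.19. Differently numbered libraries were not compared, so these values cannot settle whether the replicate numbers pair the libraries. With a replicate block the number of calls between model and control was 8 (12% of all genes), there was 1 relative call between SYD and model (15.2% of all genes), and of the 4 entries with an adjusted p under 0.05 between SYD and control 0 were left, and 0 of all genes passed there. Over reads outside the mitochondrial genes the members' share was 5.29%, 4.36% and 8.25% in the model group and 3.65%, 3.72% and 5.59% in the SYD group. Under TPM, named rises between model and control turned to −1.72 for Rpl35a on chromosome 5, −0.64 for Rpl39l and −1.07 for Rpl36al. The falls between SYD and model turned to 0.36 for Rpl35a, 0.47 for Rpl22 and 0.55 for Rpl36al. The rises between SYD and control turned to −0.74 for Rpl12, −0.52 for Rpl36al, −0.83 for Rpl21 and −0.77 for Rpl39. Rps27l turned to 0.18 with voom and 0.68 without model replicate 3, for which the cause was not tested. Over all alternatives, a count, share or median of the members stayed within its bounds in 93, moved past them in 36 and turned in 3, and a named member kept its direction and call in 214, lost its call in 20, gained one in 20 and turned in 12. Depth was low in model library 1 for members below 10 FPKM, where 3 reads make 0.480 FPKM of Rpl3l.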

Other observations

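Copies of ribosomal protein genes that carry no member's name were read at high levels, and the division of reads within some families differed between groups whatever the scale. Of 155 such entries tested, 26 rose and 3 fell between model and control, with a median log2 fold change of 0.63, beside 3.55% and 11.2% of all genes and their median of −0.23. RGD1359290, described as Rpl17 and placed on chromosome 10, measured 8.14, 9.92 and 114 FPKM in the controls, 380, 271 and 897 in the model group and 239, 121 and 351 in the SYD group. The 3 controls lay below all operated libraries, with control library 3 near the lowest SYD value. The log2 fold change was 4.33 ± 1.05 between model and control (limma adjusted p = 0.094). Rpl17 itself, on chromosome 18, measured 391, 486 and 348 FPKM in the controls and 322, 254 and 761 in the model group, and made up 74.96% to 97.5% of its family's FPKM in the controls, 45.5% to 48.1% in the model group and 50.1% to 74.5% in the SYD group.

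Rps27a-ps1 measured 167, 206 and 194 FPKM in the controls, 625, 487 and 1026 in the model group and 433, 424 and 610 in the SYD group. Rps27a held 46.4% to 46.8% of its family in the controls, 25.5% to 26.6% in the model group and 21.6% to 26.0% in the SYD group, a narrow range within each group. In the Rpl12 family the SYD group stood apart, with 49.0% to 55.6% on Rpl12 against 31.3% to 33.6% in the controls and 28.3% to 31.7% in the model group. These 3 families were chosen after their values were seen, as those with the widest gaps between group means among families whose shares did not overlap between at least 1 pair of groups. Of 69 members with further entries in their family, the share was clear of overlap for 23 between model and control (10 higher and 13 lower), 14 between SYD and model (10 and 4) and 23 between SYD and control (13 and 10). Some of the counted gaps were small, and the share of Rps9 differed by at most 0.0283 percentage points between group means. Families of other genes were not compared in this way, so these counts have no background beside them. No test was made of these shares.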
